A study of Rattus norvegicus with 6 samples.

Results

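The miRNAs described here are miR-193, miR-193b and miR-365, 3 of 584 rodent miRNA assays measured by RT-qPCR in the rat heart. They were picked by assay name, with the passenger-strand (star) assays left out, after earlier results of these data had shown miR-193b and miR-365 higher in diabetic hearts with a median reference. The OLETF against LETO difference is therefore given for these miRNAs as a description and not as a test. The diabetic animals were 3 OLETF rats, an inbred strain that becomes obese and develops type 2 diabetes, and the controls were 3 LETO rats, the related non-diabetic strain. All rats were anaesthetised and ventilated before the heart was taken, and left ventricular tissue was assayed, so the measurements are averages over all cells of the ventricle. No other treatment and no age is given in the labels used here. Every diabetic rat was OLETF and every non-diabetic rat LETO, so diabetes, obesity and strain cannot be told apart.

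A microRNA represses messenger RNAs that pair with its seed, the stretch of bases near its 5′ end. In mouse, miR-193b and miR-365 are transcribed together and are enriched in brown fat, the heat-producing adipose tissue. Blocking them in cultured brown fat precursors impairs differentiation, although mice lacking them still form brown fat. The miR-193 family is also known as a repressor of growth signalling in cultured tumour cells. In mouse, miR-365 is encoded beside each of the miR-193 paralogues, and the copies give the same mature RNA, so an assay of mature miR-365 does not tell which gene it came from.

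The mature sequences and the positions of the matched entries are shown because they tell which of the 3 assays read related RNAs and where those entries lie. All 3 assays were matched by name to the RefSeq miRNA table (build GRCr8), taking the unstarred assay name as the 3p arm. The sequences run 5′ to 3′, and capitals mark the seed, bases 2 to 8.
miR-193 (rno-miR-193a-3p, chr10:65170370-65170391, plus strand): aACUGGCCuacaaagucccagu
miR-193b (rno-miR-193b-3p, chr10:1824994-1825012, plus strand): aACUGGCCcacaaaguccc
miR-365 (rno-miR-365-3p, chr10:65184271-65184292, plus strand): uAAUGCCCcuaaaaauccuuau

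miR-193 and miR-193b share the seed ACUGGCC, which no other of the 724 mature entries in the table carries. Over the 19 positions that the entries share, counted from 1 at the 5′ end, they differ by 1 base, U9C from miR-193 to miR-193b. The seed of miR-365, AAUGCCC, is carried by no other entry. The 3 miRNAs thus form 2 seed groups. The genes are grouped in another way. In GRCr8 the hairpins of miR-193 (Mir193) and miR-365 (Mir365b) lie 13.8 kb apart on the plus strand of chromosome 10, with 0 annotated genes between them. The hairpin of miR-193b lies 63.3 Mb away on the same chromosome, inside the long non-coding RNA gene LOC102547286. The miR-365 entry matched here is therefore the annotated neighbour of miR-193, which has the seed of miR-193b. The table held no other miR-365 hairpin, so it cannot show whether a copy also lies beside miR-193b in the rat. The miR-193b entry is 19 bases long and that of miR-193 22, so the last bases at the 3′ end of miR-193 were not compared. Whether the miR-193 and miR-193b assays cross-react was not tested.

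All 3 miRNAs were measured in 6 of 6 samples, each in 1 well per sample on the first of 2 cards (card A). The threshold cycle (Ct) is the PCR cycle at which product is detected, and more RNA gives a lower Ct, by 1 cycle per log2 unit where product doubles each cycle. miR-193b had Ct values of 25.7, 25.8 and 24.9 in OLETF replicates 1, 2 and 3, against 27.3, 27.2 and 25.3 in LETO replicates 1, 2 and 3. miR-365 had Ct values of 31.0, 31.3 and 29.3 in OLETF, against 32.9, 33.3 and 29.2 in LETO. miR-193 had Ct values of 33.3, 34.4 and 31.9 in OLETF, against 33.4, 34.0 and 30.4 in LETO. In each sample miR-193b amplified first, then miR-365, then miR-193, and replicate 3 had the lowest Ct of its group for all 3. Among the 122 card A assays measured in all 6 samples, miR-193b ranked between 24 and 26 from the lowest Ct in OLETF and between 32 and 45 in LETO. miR-365 ranked between 87 and 93 in OLETF and between 110 and 118 in LETO, and miR-193 between 118 and 120 in OLETF and between 116 and 120 in LETO. Assays differ in efficiency, so these ranks describe Ct values and not copies of each miRNA.

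The number of assays measured under a Ct of 35 ran from 197 to 228 in OLETF and from 202 to 292 in LETO. LETO replicate 3 stood apart, with 292 assays and a median card A Ct of 26.5, while that median was 28.0 to 29.0 in OLETF and 30.02 and 29.5 in LETO replicates 1 and 2. The reference RNA U6 did not follow this, with a card A Ct of 17.9 in LETO replicate 3, inside the range of 17.5 to 19.2 of all samples. The small RNA controls U87 and snoRNA135 did follow it on card A. Their Ct values in LETO replicate 3 were 24.0 and 27.1, for each the lowest of all samples. Heart muscle miRNAs were present in every sample. Relative to U6, the muscle miRNA miR-133a averaged 0.46 log2 units in OLETF and 0.89 in LETO. The liver miRNA miR-122 was measured in 0 samples, and the red-cell miRNA miR-451 in 0 OLETF samples and 1 LETO sample. miR-486, made in red cells and in muscle, was measured in all 6 samples and averaged 5.67 log2 units above the card median in OLETF and 5.20 in LETO. The precision of a single well was taken from assays with paired wells on the other card. The SD of a well was 0.602 cycles over 105 pairs with a mean Ct of 30 to 35, where miR-365 and miR-193 mostly lie, and 0.282 cycles over 84 pairs below 30, where miR-193b lies.

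With U6 as the reference, as in the study, miR-193b and miR-365 lay higher in OLETF on average and miR-193 lower, and the groups overlapped for all 3. The level is the negative of the Ct difference from U6 on the same card, in log2 units. For miR-193b the levels were -8.09, -7.90 and -6.64 in OLETF, against -8.09, -9.75 and -7.40 in LETO. OLETF replicate 3 was the highest sample and LETO replicate 2 the lowest, and OLETF lay above LETO in 7 of 9 pairs of samples. The means were -7.54 ± 0.79 in OLETF and -8.41 ± 1.21 in LETO (SD, n = 3 each), a difference of 0.87 with a limma SE of 1.38. The fit with U6 gave all 3 miRNAs this same SE. It reflects the spread pooled over assays and is not an error estimated for each miRNA alone.

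miR-365 had levels relative to U6 of -13.33, -13.37 and -11.04 in OLETF, against -13.71, -15.85 and -11.33 in LETO. Replicate 3 was the highest of each group, LETO replicate 2 was the lowest sample of all, and OLETF lay above LETO in 7 of 9 pairs. The means were -12.58 ± 1.34 in OLETF and -13.63 ± 2.26 in LETO (SD, n = 3 each), a difference of 1.05 (SE 1.38). The sign of this difference rested on LETO replicate 2, without which it was -0.06, and without LETO replicate 3 it was 2.20.

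miR-193 had levels relative to U6 of -15.71, -16.49 and -13.68 in OLETF, against -14.15, -16.51 and -12.51 in LETO. Replicate 2 was again the lowest and replicate 3 the highest sample of each group, and OLETF lay above LETO in 4 of 9 pairs. The difference was -0.90 (SE 1.38), and it was 0.03 without LETO replicate 3 and -1.96 without LETO replicate 2. The authors' deposited table, made from the same Ct values, gave OLETF over LETO ratios of 1.83 for miR-193b, 2.07 for miR-365 and 0.534 for miR-193.

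In the fit over all assays with U6, 0 of 193 assays passed an adjusted p of 0.05 (limma, 0%), and 2 had an unadjusted p under 0.05. None of miR-193, miR-193b and miR-365 was among those called. The median difference of all tested assays was -0.60, with 37 assays higher and 156 lower in OLETF. This direction rested on LETO replicate 3, without which the median was 0.38, with 138 assays higher and 40 lower. Ordered from the highest difference, miR-365 ranked 3 and miR-193b 5 of 193, while miR-193 ranked 133. The median SE over all tested assays was also 1.38.

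**Figure D1:**
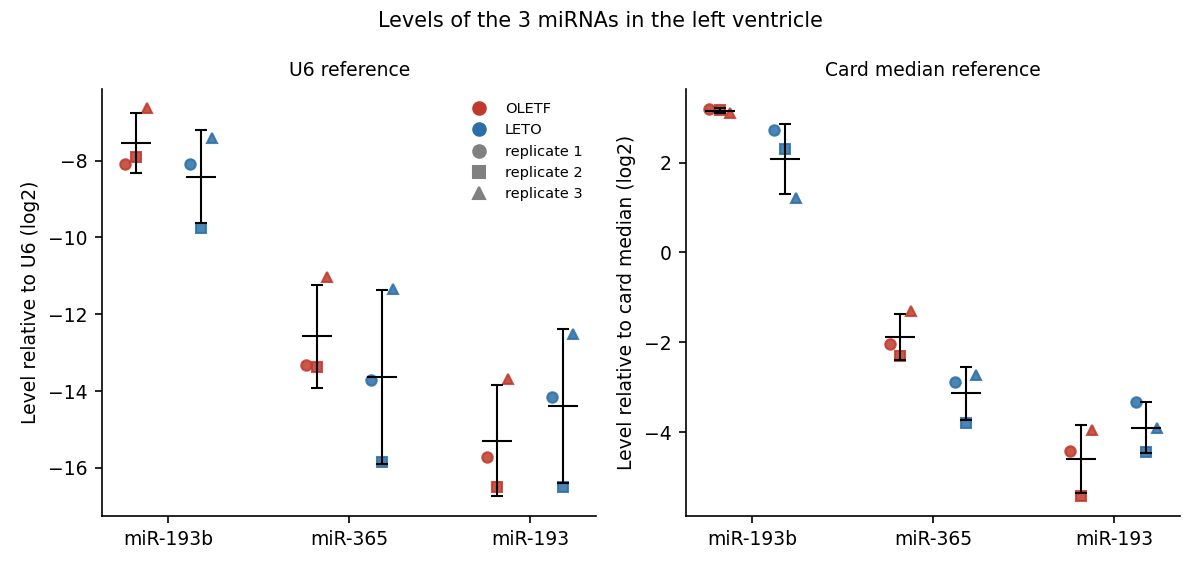
Levels of miR-193b, miR-365 and miR-193 in each left ventricle, in log2 units relative to U6 (left panel) and to the card median (right panel); points are samples, with bars at the mean ± SD of 3 OLETF (red) and 3 LETO (blue) rats. With U6 the groups overlap for all 3 miRNAs, while with the card median the OLETF points of miR-193b and miR-365 lie above all LETO points and those of miR-193 do not.

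The card median reference takes out the shift that all assays of a sample share. It is the median Ct of the 122 card A miRNA assays measured in all 6 samples. With it the SDs of all 3 miRNAs were smaller than with U6 in both groups. For miR-193b the levels were 3.20, 3.17 and 3.10 in OLETF, against 2.73, 2.31 and 1.21 in LETO. The 3 OLETF samples lay within 0.1 log2 units of each other and above every LETO sample, and LETO replicate 3 was the lowest. Each value came from 1 well, and the SD of a well with a Ct below 30 was 0.282 cycles. So small a spread in OLETF does not show that the rats were this alike. The means were 3.16 ± 0.05 in OLETF and 2.08 ± 0.78 in LETO (SD, n = 3 each), a difference of 1.07 (SE 0.453), or 2.10-fold. Without LETO replicate 3 the difference was 0.64.

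For miR-365 the levels relative to the card median were -2.04, -2.30 and -1.30 in OLETF, against -2.89, -3.80 and -2.72 in LETO. Every OLETF sample lay above every LETO sample, with OLETF replicate 2 and LETO replicate 3 nearest to each other. The means were -1.88 ± 0.52 in OLETF and -3.14 ± 0.58 in LETO (SD, n = 3 each), a difference of 1.25 (SE 0.452), or 2.39-fold. With any 1 sample left out it lay between 0.92, without LETO replicate 2, and 1.46, without LETO replicate 3 or OLETF replicate 2.

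For miR-193 the levels relative to the card median were -4.42, -5.42 and -3.95 in OLETF, against -3.33, -4.45 and -3.91 in LETO. The groups overlapped, with OLETF above LETO in 2 of 9 pairs, and OLETF replicate 2 was the lowest sample. The difference was -0.70 (SE 0.497), and it was -0.29 without OLETF replicate 2 and -0.42 without LETO replicate 1.

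With the card median, 0 of 193 assays passed (limma, 0%; 12 at an unadjusted p under 0.05, smallest adjusted p = 0.288), and the median difference was -0.31. Of 162 assays measured in all samples, 4.32% had every OLETF sample above every LETO sample, miR-193b and miR-365 among these, and 9.26% had every OLETF sample below. This separation is what drew attention to them and supports nothing further. With the whole-array median over both cards, the differences were 1.36 for miR-193b, 1.54 for miR-365 and -0.42 for miR-193, and miR-193b and miR-365 again separated the groups, as 7.41% of assays did in that direction. With the small RNA controls snoRNA135 and U87 as reference they were 1.43, 1.61 and -0.35, where the median of all assays was 0.13 and 9.88% of assays, miR-193b and miR-365 among them, had every OLETF sample above.

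**Figure D2:**
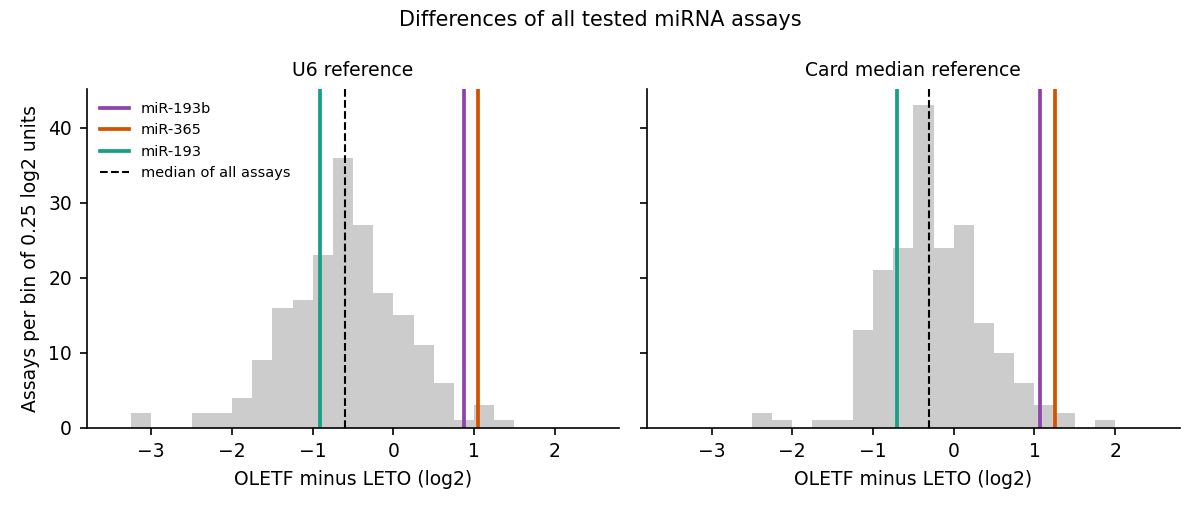
Histograms of the OLETF minus LETO difference (log2) of all 193 tested miRNA assays, with U6 (left) and the card median (right) as reference; coloured lines mark the 3 miRNAs and the dashed line the median of all assays, -0.60 and -0.31. miR-193b and miR-365 stand in the right tail in both panels, and miR-193 stands to the left of the dashed line.

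The distance between 2 miRNAs inside one sample needs no reference at all, since a shift that is equal for all assays of the sample cancels. A shift that differs between assays does not cancel. miR-365 lay 2.37, 3.12 and 2.65 log2 units above miR-193 in OLETF replicates 1, 2 and 3, against 0.44, 0.65 and 1.19 in LETO. The smallest OLETF distance exceeded the largest LETO distance by 1.19. The mean distance was 2.71 ± 0.38 in OLETF and 0.76 ± 0.38 in LETO (SD, n = 3 each), a difference of 1.96, or 3.88-fold. With any 1 sample left out it ran from 1.75 to 2.17. Within groups the distance had an SD of 0.381, below the 0.851 that paired wells of Ct 30 to 35 gave for the difference of 2 wells. Of all card A pairs, 13.3% had a within-group SD this small or smaller. A spread this small between 3 rats does not show that the miRNAs move together.

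miR-193b lay 7.61, 8.60 and 7.05 log2 units above miR-193 in OLETF, against 6.05, 6.76 and 5.12 in LETO. The groups did not overlap, but the gap between OLETF replicate 3 and LETO replicate 2 was only 0.29. The means were 7.75 ± 0.78 in OLETF and 5.98 ± 0.82 in LETO (SD, n = 3 each), a difference of 1.78, or 3.42-fold.

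miR-193b lay 5.24, 5.47 and 4.40 log2 units above miR-365 in OLETF, against 5.61, 6.11 and 3.93 in LETO. The groups overlapped, with replicate 3 the lowest of each. The means were 5.04 ± 0.56 in OLETF and 5.22 ± 1.14 in LETO (SD, n = 3 each), a difference of -0.18. Relative to each other miR-193b and miR-365 thus showed no separation of the strains, while each of them separated the strains when set against miR-193.

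Over all 7381 pairs of the 122 card A assays, the groups did not overlap in distance for 13.8%. The median size of the difference in distance was 0.53 log2 units, and 1.25% of pairs had one at least as large as miR-365 with miR-193, 2.51% as large as miR-193b with miR-193 and 81.7% as large as miR-193b with miR-365. The median SD of a distance over the 6 samples was 0.765, against 0.810 for miR-193b with miR-365. These shares describe where the pairs stand and are not tests, because the same contrast chose the miRNAs.

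**Figure D3:**
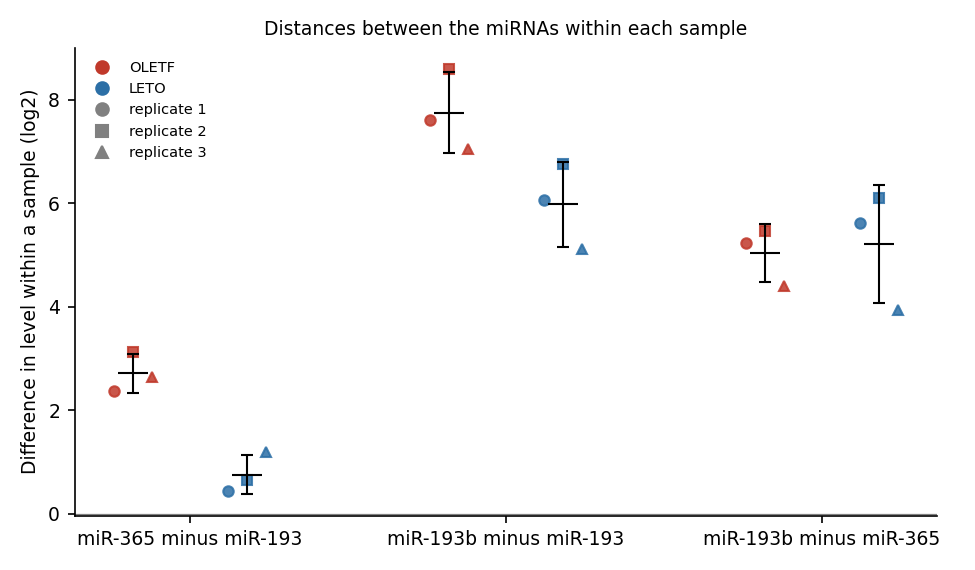
Difference in level (log2) between pairs of the miRNAs within each sample, for 3 OLETF (red) and 3 LETO (blue) rats, with bars at the mean ± SD. The distance of miR-365 from miR-193 is 2.37 to 3.12 in OLETF and 0.44 to 1.19 in LETO, while the distance of miR-193b from miR-365 overlaps between the groups.

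Whether the miRNAs vary together was first asked over all 6 samples with U6. miR-193b and miR-365 had a Pearson r of 0.966 (two-sided exact permutation p = 0.00417, adjusted p = 0.0125 over the 3 pairs) and a Spearman rho of 0.943 (exact permutation p = 0.0167, adjusted p = 0.05). Leaving out the 2 samples farthest from the median of miR-193b gave r = 0.966. With 5 samples, r ran from 0.925 to 0.992, and the exact permutation adjusted p was 0.05 without LETO replicate 1, 0.075 without LETO replicate 2 or OLETF replicate 3 and 0.125 without LETO replicate 3. For miR-193 with miR-365 r was 0.784 (exact permutation p = 0.075, adjusted p = 0.113) and rho 0.771 (exact permutation p = 0.103, adjusted p = 0.136), and r was 0.572 without the 2 farthest samples. For miR-193 with miR-193b r was 0.679 (exact permutation p = 0.122, adjusted p = 0.122) and rho 0.714 (exact permutation p = 0.136, adjusted p = 0.136), and r was 0.591 without the 2 farthest samples. These r values share the U6 wells and the shift of the whole sample. They also hold the group difference that drew attention to miR-193b and miR-365. Their p-values are against no relation at all, so they do not single out miR-193b with miR-365. The median r over all 7381 pairs of card A assays was 0.904, and 19.4% of pairs had an r at or above that of miR-193b with miR-365. An r this high with U6 was therefore common on the card.

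With the card median, the pooled r of miR-193b with miR-365 was 0.500, which mixes the group difference that drew attention to them with the variation inside groups. The variation inside groups was therefore taken alone, as each sample's deviation from its group mean. It did not pass for any pair with the card median, and with quantile normalization all 3 pairs passed (r of 0.943 to 0.980, exact permutation adjusted p = 0.0278). High r values were widespread under that normalization, with a median within-group r of 0.746 over 7260 card A pairs. Of these pairs, 14.31% had an r at or above that of miR-193b with miR-365. The shares were 12.04% for miR-193 with miR-365 and 3.69% for miR-193 with miR-193b. With the card median, for miR-193b with miR-365 r was -0.325 (exact permutation within groups, p = 0.722, adjusted p = 0.917), for miR-193 with miR-365 0.819 (exact permutation p = 0.139, adjusted p = 0.417) and for miR-193 with miR-193b 0.140 (exact permutation p = 0.917, adjusted p = 0.917). The smallest p that 36 orders of 3 and 3 samples allow is 0.0278.

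miR-193 and miR-365 deviated together in 4 of 6 samples by sign, down in replicate 2 of both strains and up in OLETF replicate 3 and LETO replicate 1. Their r stayed between 0.707 and 0.929 with any 1 sample left out, and 12.6% of card A pairs had one at or above 0.819, with a median of 0.126 over all pairs. The r of miR-193b with miR-365 was not stable, between -0.771 and 0.486 with 1 sample left out, the highest without LETO replicate 3. There miR-193b deviated by -0.87 and miR-365 by 0.41, while in OLETF miR-193b hardly moved.

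**Figure D4:**
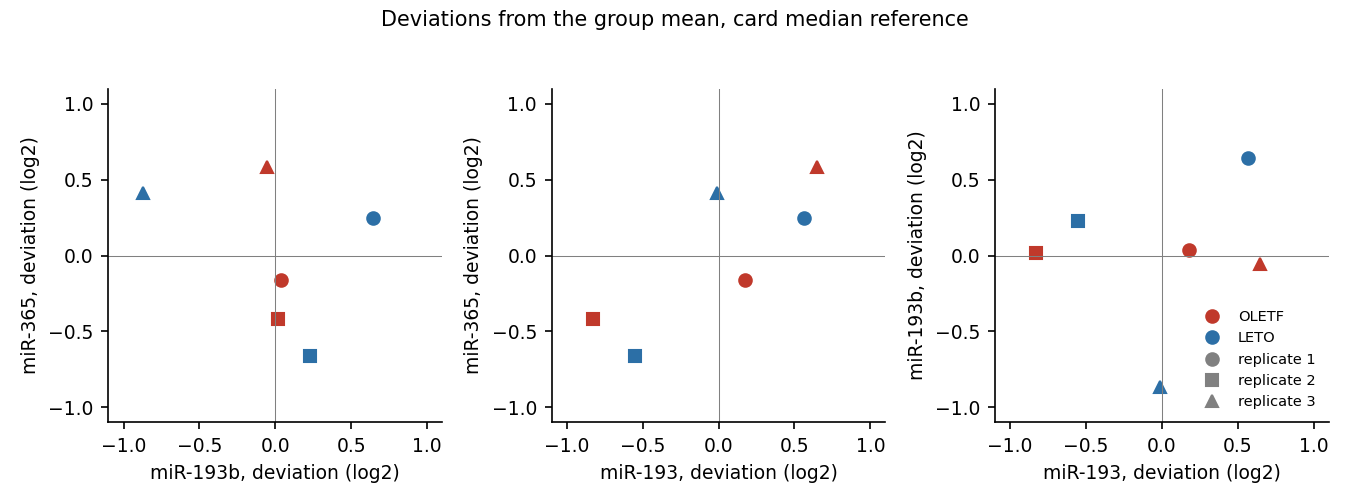
Deviation of each sample from its group mean, in log2 units with the card median reference, for each pair of the miRNAs (OLETF red, LETO blue; the marker shape gives the replicate). The points of miR-193 against miR-365 run from lower left to upper right (r = 0.819), and the points of miR-193b against either other miRNA show no such line.

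The assays whose pattern over the 6 samples was most like each miRNA were looked up among the 122 card A assays with the card median, by Pearson r, as a description. The closest to miR-193b were miR-34b-3p (r = 0.945), miR-331-3p (0.943), miR-23b (0.941), miR-132 (0.935) and miR-155 (0.903). All 5 lay higher in OLETF on average, from 0.47 for miR-331-3p to 1.40 for miR-34b-3p, of a family known as p53 targets. An r over both groups favours assays that differ between them in the same direction. For miR-23b and miR-132 the likeness was as close inside groups, with r of 0.948 and 0.931. These r rest mostly on the LETO samples. From its group mean miR-193b deviated by 0.64, 0.23 and -0.87 in LETO replicates 1, 2 and 3, and by 0.04, 0.02 and -0.06 in OLETF. The closest to miR-365 was miR-203 (r = 0.929, and 0.915 inside groups), a miRNA known from skin and also reported as enriched in mouse brown fat. It lay higher in OLETF by 0.66 (SE 0.429). The next, miR-214 (0.767), miR-15b (0.690), miR-744 (0.654) and miR-218 (0.642), were less alike. For miR-218 the r inside groups was 0.0418, so its likeness lay in the group difference. The closest to miR-193 were miR-204 (r = 0.979), miR-490 (0.974), miR-30b (0.965), miR-345-3p (0.945) and miR-28 (0.916), which all lay lower in OLETF on average, from -0.38 for miR-30b to -1.17 for miR-345-3p. By this measure miR-193b ranked 8 of 121 in likeness to miR-365, miR-365 ranked 31 of 121 in likeness to miR-193b, and miR-193 ranked 59 in likeness to miR-365 and 64 in likeness to miR-193b. Inside groups miR-193b ranked 88 in likeness to miR-365 and miR-193 ranked 27, so the rank of 8 lay in the group difference for which both were chosen.

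Of the other miRNAs linked to brown fat in mouse, most lay lower in OLETF with U6 and with the card median, and this direction turned with the reference and with LETO replicate 3. The promoting list held 12 assays, of which 9 were tested and 0 passed with either reference (limma). Its counts and medians include miR-193b and miR-365, which drew attention by lying higher in OLETF, so they partly restate that choice. With the card median 3 lay higher, miR-193b, miR-365 and miR-203, and 6 lower, and the median was -0.28, against -0.31 for all tested assays. Apart from miR-193b and miR-365, miR-203 alone lay higher. With U6 the split was again 3 higher and 6 lower, with a median of -0.48 against -0.60. With snoRNA135 and U87 as reference 6 lay higher and 3 lower, where 113 of all 193 assays lay higher. With U6 and without LETO replicate 3, 9 of 9 lay higher, and with the card median and without it 4 lay higher and 5 lower. Of all tested assays, 138 lay higher and 40 lower in the first case, and 49 higher and 129 lower in the second. The highest levels were those of miR-30c, reported to promote brown fat genes, and miR-378, encoded within the gene of the coactivator PGC-1beta. With the card median miR-30c averaged 6.30 in OLETF and 6.43 in LETO, a difference of -0.13, and miR-378 averaged 7.58 in OLETF and 7.93 in LETO, a difference of -0.35. miR-182 was measured in 1 OLETF and 1 LETO sample, miR-32 in 0 and 1, and miR-455 in 0 and 0.

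The list of miRNAs reported to restrain brown fat had 9 of 9 assays tested and 0 passed with either reference (limma). With both references 1 lay higher, miR-155, and 8 lower, with a median of -0.34 with the card median, against -0.31 for all tested assays. Of all assays 37 lay higher and 156 lower with U6, and 63 and 130 with the card median. With snoRNA135 and U87 as reference 5 lay higher and 4 lower, against 113 and 80 of all assays. Without LETO replicate 3, 7 lay higher and 2 lower with U6, against 138 and 40 of all assays. With the card median and without it 2 lay higher and 7 lower, against 49 and 129. The list thus leaned as all assays did. miR-155, also a leukocyte miRNA, averaged 0.074 in OLETF and -0.82 in LETO with the card median, a difference of 0.90 (SE 0.454). miR-133a, which represses the brown fat regulator Prdm16, differed by -0.22, and miR-133b differed by -0.34. miR-34a differed by -1.11 and miR-27a by -0.63.

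**Figure D5:**
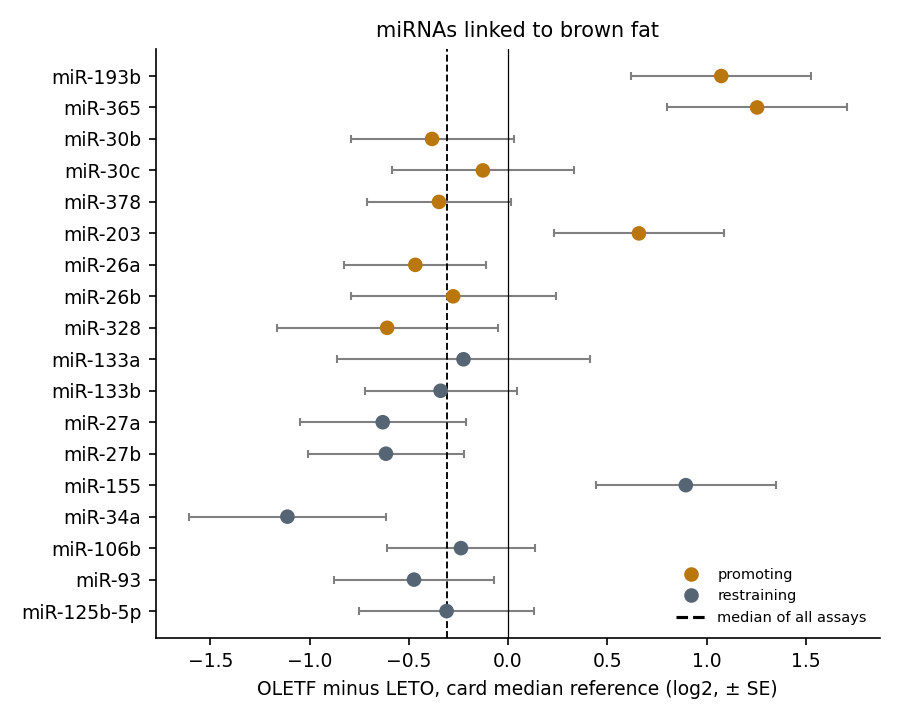
OLETF minus LETO difference (log2, card median reference, ± SE from limma) of the 18 tested miRNAs reported in mouse to promote (ochre) or restrain (grey) brown fat. miR-193b, miR-365, miR-203 and miR-155 lie to the right of 0 and the other 14 to the left, around the median of all tested assays at -0.31 (dashed).

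Among markers of other cells, the erythroid list had 1 tested member, miR-486, which lay higher in OLETF by 0.27 with U6 and by 0.47 with the card median (SE 0.622). Without LETO replicate 3 its difference was 0.50 with U6 and -0.24 with the card median. The list's summed level relative to the card median was 35.9 to 66.5 in OLETF and 13.7 to 69.9 in LETO. With the card median, 3 of 4 tested leukocyte miRNAs lay higher in OLETF, with miR-155 at 0.90, miR-150 at 0.19, miR-223 at 0.090 and miR-142-3p at -0.49. With U6, 1 of these 4 lay higher and 3 lower, as with the card median without LETO replicate 3. The list's summed level relative to the card median ran from 113 to 226 in OLETF and from 62.5 to 262 in LETO. Of all 193 tested assays, 63 lay higher and 130 lower with the card median. The heart muscle list had 0 of 7 assays higher, with a summed level of 1695 to 3237 in OLETF and 1089 to 4777 in LETO. This direction turned with the reference. With snoRNA135 and U87, 4 of the 7 lay higher, where 113 of all 193 assays did. The fibroblast list had 1 of 3 higher with the card median (miR-214 at 0.38, while miR-21 was at -0.34). Its summed level was 4.11 to 7.77 in OLETF and 4.77 to 8.33 in LETO. All 3 lay higher with snoRNA135 and U87 as reference, and also with the card median without LETO replicate 3. The endothelial list had miR-126-3p at 0.14 but miR-126-5p at -0.56, and the smooth muscle list had miR-143 at -0.29 with miR-145 at -0.65. No adipocyte marker was among the assays listed, and the part of any cell type in the levels of miR-193b and miR-365 was not tested. In tissue RNA, fewer cells of a type and less RNA per cell cannot be told apart.

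The passenger strand of the miR-193 hairpin was assayed as miR-193* in 2 wells on card B. It is shown because it comes from the same hairpin as miR-193 and has its own seed, GGGUCUU.
miR-193* (rno-miR-193a-5p, chr10:65170336-65170357, plus strand): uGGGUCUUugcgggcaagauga
Its wells gave Ct values of 35.1 and 34.0 in OLETF replicate 3 and 37.1 in 1 well of OLETF replicate 2, and the other OLETF wells were undetermined. In LETO all wells were determined, at 35.5 and 34.8, 35.2 and 34.7, and 31.9 and 31.6 in replicates 1, 2 and 3. Under the Ct limit of 35 it was measured in 1 OLETF and 2 LETO samples and was not tested. The authors' deposited table gave ratios of 0.117 and 0.0459 for its wells, with an undetermined assay counted as 40 cycles. The lower side was OLETF, as for miR-193, but at Ct values near the limit no size is given. The card as a whole leaned the same way, with a card B median Ct that averaged 29.8 in OLETF and 29.0 in LETO. The direction is therefore not particular to this strand.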

How the data were processed

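The labels' protocols name a small RNA extraction, pooled stem-loop reverse transcription, TaqMan rodent miRNA cards and U6 as endogenous control. The deposited tables held, per the file headers, the Ct per well, the authors' delta Ct (a log2 quantity, Ct minus mean U6 of the card) and the authors' ratio (fold) of OLETF over LETO. Baseline settings are not given in the sources used here. An assay's Ct was the mean of its determined wells, and it counted as measured under a Ct of 35. Assays measured in at least 2 samples of each group were tested with limma 3.58.1 in R 4.3.3 (Benjamini-Hochberg, 0.05). Correlations used two-sided exact permutation. The fits and the permutation code were checked on simulated data. Depth has no counterpart in Ct data, and precision came from paired wells. The labels do not say that rats came from separate litters, so p-values speak for these samples. The miRNAs, lists and tests were chosen with earlier results of these data known. Named were the 3 miRNAs, the 5 assays most like each, the star strand, markers, controls, and from each list the 2 highest and the 2 most different members. The lists came from general knowledge. Alternatives were other references, Ct limits of 32 and 38, the deposited delta Ct, other filters, the replicate number as a block, and each sample left out.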

Additional observations from a re-analysis of the deposited data

How the results depend on the processing

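The card median with a sample left out, the comparison within replicates 1 and 2, and the small RNA controls for the within-group r were added after the values were seen. No assay passed an adjusted p of 0.05 (limma) in any alternative run except the replicate block with U6, where 1 did, miR-466d-3p; the cause was not tested. Samples with the same number did not deviate together throughout (r of -0.088, 0.228 and 0.616 for numbers 1, 2 and 3), so the numbers are not taken as pairs. The differences of miR-193b, miR-365 and miR-193 moved by less than the spread between replicates in every alternative. With U6 and 1 sample left out they ran from 0.20 to 1.38 for miR-193b, from -0.06 to 2.20 for miR-365 and from -1.96 to 0.03 for miR-193. A Ct limit of 32 left miR-193b alone tested. The pooled r with U6 depended on the reference. For miR-193b with miR-365 it was 0.500 with the card median and 0.608 with the whole-array median, for miR-193 with miR-365 -0.0411 and -0.00292, and for miR-193 with miR-193b -0.340 with either. With 1 sample left out it ran from 0.925 to 0.992, 0.704 to 0.861 and 0.556 to 0.802, and for miR-193b with miR-365 it was 0.966 without the 2 farthest samples (exact permutation adjusted p = 0.125 with 4 samples). The within-group r of miR-193b with miR-365 was 0.972 with U6, 0.943 with quantile normalization, -0.771 with the small RNA controls and -0.604 with the whole-array median, and between -0.771 and 0.486 when a sample was left out. That of miR-193 with miR-365 was 0.950 with quantile normalization, and ran from 0.707 to 0.929. That of miR-193 with miR-193b was -0.0207 with the whole-array median and 0.980 with quantile normalization, and ran from -0.386 to 0.474. With quantile normalization all 3 passed (exact permutation adjusted p = 0.0278), where the median within-group r over all card A pairs was 0.746. With every other reference none passed, and the cause was not tested. With 1 sample left out the differences in distance ran from 1.75 to 2.17 for miR-365 with miR-193, 1.35 to 2.17 for miR-193b with miR-193, and -0.82 to 0.26 for miR-193b with miR-365.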

Other observations

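The assays that ran most against each miRNA over the 6 samples, with the card median and among the 122 card A assays, were looked up after the values were seen and are given as descriptions. The rat assay of miR-1, an abundant muscle miRNA, ran against miR-365 (r = -0.913, and -0.771 inside groups). Its levels were 5.98, 5.88 and 5.69 in OLETF, against 6.36, 6.46 and 6.36 in LETO, a difference of -0.54 (SE 0.336). Every OLETF sample lay below every LETO sample, as in 9.26% of the 162 assays measured in all samples. The mouse assay of miR-1 on the same card overlapped between the groups, with OLETF above LETO in 2 of 9 pairs. That assay differed by -1.11 (SE 0.685). miR-301a, of the miR-130/miR-301 family, ran against miR-193b (r = -0.915, and -0.853 inside groups). Its levels were -2.63, -2.77 and -1.93 in OLETF, against -2.15, -1.90 and -0.91 in LETO, with LETO replicate 3 the highest, the sample in which miR-193b was the lowest. miR-184 ran against miR-193 (r = -0.829), with a mean of -0.21 in OLETF and -1.46 in LETO.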
